A study of Mus musculus with 8 samples.

Results

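Onecut1 encodes hepatocyte nuclear factor 6 (HNF6), a transcription factor with a cut domain and a homeodomain. The genes described here are Onecut1 (NCBI gene 15379), its paralogue Onecut2 (225631) and 2 of the noncoding genes annotated beside Onecut1. These 2 are Gm16551 (100503019) and Gm33562 (102636520). A further noncoding gene, Gm38678, overlaps Onecut1, is not among the 4 and is given with the neighbours. The 4 genes are rows of a gene count table of 40838 rows. All 4 were among the 17438 genes with enough reads to be tested. They were taken by name and position, and they were chosen by their level in CPM (read counts scaled to library size) and its fold change between the groups of this same study, so their group values are a description and no test is given for them. The table holds 8 liver samples of C57BL/6 mice kept for 16 weeks on a diet used to produce nonalcoholic steatohepatitis (NASH). After the first 7 weeks an adeno-associated virus (AAV) was injected, and 9 weeks of the diet followed. In the Lpcat3 group (4 samples) the virus carried Lpcat3 and in the eGFP group (4 samples) enhanced green fluorescent protein, both behind the TBG promoter, which is active in hepatocytes. Lpcat3 encodes an acyltransferase that inserts polyunsaturated fatty acids into membrane phospholipids. Every liver thus had the diet and a virus. The labels give no sex, age or time of death and leave it unsaid whether each sample is an animal of its own. The p-values given here therefore rest on the variation among these 8 samples, which may be technical.

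HNF6 takes part in the network of liver transcription factors with HNF4A, the HNF1 and the FOXA proteins, and it is needed for the formation of bile ducts during development. In adult liver it is found in hepatocytes and in bile duct cells, where it binds genes of glucose, bile acid and lipid metabolism, and growth hormone has been reported to induce it through STAT5. ONECUT2 binds similar sequences and overlaps with HNF6 in liver development. Long noncoding genes such as Gm16551 and Gm33562 give RNA without a known protein, and no function is assigned to them here.

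Library totals ran from 22433625 to 25651874 counts. Lpcat3 was at 274 to 465 CPM in the Lpcat3 group and at 133 to 173 CPM in the eGFP group, without overlap, as the labels say. At a Benjamini-Hochberg adjusted p under 0.05, edgeR's quasi-likelihood test found a single gene among 17438, the noncoding Egfros, which was higher (0.00573% of genes) and is named after its values were seen, and 0 that were lower. At an unadjusted p under 0.05 there were 575 higher (3.3%) and 903 lower (5.18%), and DESeq2 found 28 higher and 23 lower at the adjusted threshold. The liver identity was checked on 10 hepatocyte markers, none with a group mean under 116 CPM, whose summed level overlapped between the groups, at 77389 to 109870 CPM against 65350 to 95591 CPM. In whole tissue, fewer cells of a type and less RNA per cell cannot be told apart. The codes in the sample titles carry the numbers 1290, 1317, 1344 and 1345, whose meaning is not given. They divide the groups unevenly, since 1290 and 1317 hold 1 Lpcat3 and 3 eGFP libraries.

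The sequences at the starts of Onecut1, Gm16551 and Gm33562 show how these 3 genes lie to each other, since whose reads are counted depends on it. They come from RefSeq (GRCm38.p6, a build that is not the GRCm39 of the submitters' processing notes), which held windows for the 3 genes. No sequence of Onecut2 is printed here. Onecut1 and Gm16551 are on the plus strand of chromosome 9, with Gm16551 starting 13484 bases before Onecut1. Gm33562 is on the minus strand, and its first start lies 1215 bases after the start of Onecut1, so that it runs back across the beginning of Onecut1 and across all of Gm16551. The whole 300-base window around that start falls inside the first coding exon of Onecut1 in GENCODE M21, on the opposite strand. A further start of Gm33562 lies 16926 bases before that of Onecut1. Each sequence is written 5′ to 3′ on the strand of its gene, with the motif matches described next in capitals. The Onecut1 window (chr9:74861671-74861920, plus strand) is the 250 bases before its start, the Gm16551 window (chr9:74848187-74848486, plus strand) and the Gm33562 window (chr9:74863087-74863386, minus strand) also hold 50 bases after it.
Onecut1: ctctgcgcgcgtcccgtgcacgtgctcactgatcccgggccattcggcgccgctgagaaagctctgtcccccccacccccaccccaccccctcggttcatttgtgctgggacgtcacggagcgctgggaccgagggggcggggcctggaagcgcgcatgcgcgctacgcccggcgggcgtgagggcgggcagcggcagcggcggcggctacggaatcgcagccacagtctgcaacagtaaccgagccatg
Gm16551: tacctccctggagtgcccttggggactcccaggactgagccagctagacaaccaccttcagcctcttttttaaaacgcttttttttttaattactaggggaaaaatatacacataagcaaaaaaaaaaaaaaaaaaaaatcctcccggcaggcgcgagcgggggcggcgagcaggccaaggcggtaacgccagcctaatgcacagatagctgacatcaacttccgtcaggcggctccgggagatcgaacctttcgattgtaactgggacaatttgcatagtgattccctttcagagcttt
Gm33562: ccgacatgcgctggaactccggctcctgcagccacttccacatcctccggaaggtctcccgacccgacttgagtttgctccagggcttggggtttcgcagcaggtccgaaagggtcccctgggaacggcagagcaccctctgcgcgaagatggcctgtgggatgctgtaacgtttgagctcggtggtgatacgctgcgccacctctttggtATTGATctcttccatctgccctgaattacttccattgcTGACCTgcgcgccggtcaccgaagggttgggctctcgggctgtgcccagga

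The Onecut1 start is rich in G and C, at 73.0% of the 300 bases around it, more than 94.3% of the 32851 RefSeq windows of the same length. Gm16551 had 48.3% and the first start of Gm33562 61.0%. The windows, with the 50 bases after the start of Onecut1 included, were searched on both strands for 7 motifs. The HNF6 core ATTGAT occurred once in the Gm33562 window, 39 bases before the start, and 7.54% of all windows held it. The nuclear receptor motif AGGTCA also occurred once in that window, across the start, and 16.3% of all windows held it. None of the other motifs had a match in the windows of the 3 genes or in that of the further Gm33562 start. These were the second HNF6 core, ATCGAT, found in 0.925% of all windows. The FOXA motif TGTTTAC was found in 3.65% of them. The HNF1 motif GTTAAT was found in 7.10%. The STAT5 motif TTCNNNGAA was found in 8.30%, and the HNF4A motif CAAAGTC in 4.44%. A match is a string of letters and no evidence of binding, and a missing one says only that these letters are not in this window.

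Onecut1 was at 43.2, 84.3, 55.3 and 55.2 CPM in Lpcat3 replicates 1 to 4 and at 18.5, 14.8, 11.2 and 16.7 CPM in eGFP replicates 1 to 4. Every Lpcat3 library lay above every eGFP library, and the lowest of the former was 2.34 times the highest of the latter. Lpcat3 replicate 2 stood highest and replicate 1 lowest of its group. The means were 59.5 ± 17.5 and 15.3 ± 3.11 CPM (SD, n = 4 each), a ratio of 3.89, and the fit across all genes gave a log2 fold change of 1.96 (SE 0.22). The log2 difference was 1.57 within the libraries coded 1290 and 1317 and 1.92 within those coded 1344 and 1345, where a single Lpcat3 and a single eGFP library, respectively, stand for their group. It was smaller within single codes, at 1.38 within code 1290 and 1.72 within code 1345. Onecut1 had rank 13 of 17438 genes by fold change, one of the values that led to its choice. All 4 genes described here were higher in every Lpcat3 library than in any eGFP library, as were 1.93% of all genes tested, and nothing is read from this count because the genes were chosen on it.

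**Figure D1:**
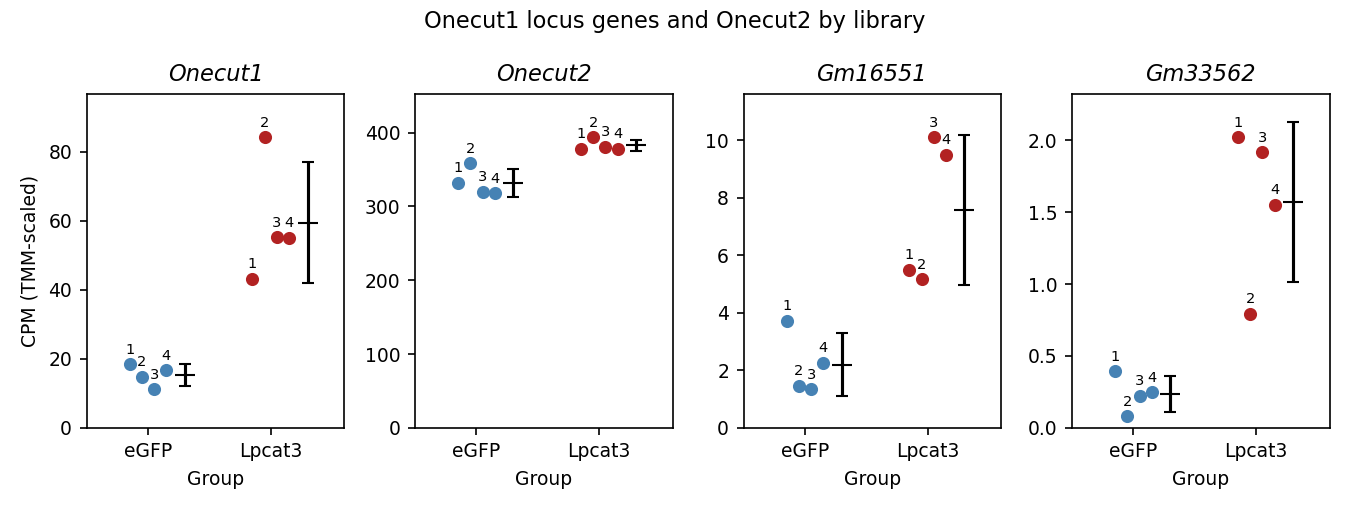
CPM of Onecut1, Onecut2, Gm16551 and Gm33562 in each library (y axis, CPM with TMM-scaled library sizes) by group (x axis). Each point is 1 library with its replicate number, the black bar is the mean and SD of 4 libraries. Onecut1 sits at 43.2 to 84.3 CPM in the Lpcat3 group and at 11.2 to 18.5 CPM in the eGFP group, and the Onecut2 groups lie close together.

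Onecut2 was far more even. It was at 378, 394, 381 and 378 CPM in Lpcat3 replicates 1 to 4 and at 332, 359, 320.05 and 318 CPM in eGFP replicates 1 to 4. The groups lay just apart with TMM scaling, the lowest Lpcat3 library 1.05 times the highest eGFP library, and with library totals they overlapped, at 336 to 391.6 against 300.1 to 369 CPM. The means were 383 ± 7.60 and 332 ± 18.8 CPM (SD, n = 4 each), with a log2 fold change of 0.20 (SE 0.07) that was 0.08 with library totals, a scaling that moved the median of all genes from -0.01 to -0.13. Within groups the log2 level of Onecut2 had an SD of 0.06, and 3.61% of tested genes had a smaller one. Onecut1 had an SD of 0.36, and 75.0% of genes were below it. The difference between the groups was thus 0.20 for the paralogue and 1.96 for Onecut1 on the log2 scale. Onecut3, the third member of the family, had 1 read in all 8 libraries together and was not tested. For a count of 0 in a library, an upper limit of counting is about 3 reads, at 95% and on the upper side only. It is not the exact Poisson interval given for other counts below.

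Levels of the paralogues can be compared only per length. With the exon lengths of GENCODE M21 (4.113 kb for Onecut1, 16.234 kb for Onecut2 and 3.708 kb for Gm16551), Onecut2 was at 20.5 CPM per kb and Onecut1 at 3.72 CPM per kb in the eGFP group, and at 23.6 and 14.5 CPM per kb in the Lpcat3 group. Gm16551 was at 0.594 and 2.04 CPM per kb in the same groups. Onecut2 was above Onecut1 and Onecut1 above Gm16551 in each of the 8 libraries. Of the summed per-length level of both paralogues, Onecut1 made up 17.99%, 13.99%, 12.1% and 17.2% in eGFP replicates 1 to 4 and 31.1%, 45.8%, 36.4% and 36.5% in Lpcat3 replicates 1 to 4. The closest approach was in Lpcat3 replicate 2, with 20.5 CPM per kb of Onecut1 and 24.3 CPM per kb of Onecut2. The gene models behind the deposited counts are not given here, so these per-length levels rest on another annotation. Gm33562 has no GENCODE M21 model and no per-length level is given.

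Gm16551 was at 5.51, 5.17, 10.1 and 9.51 CPM in Lpcat3 replicates 1 to 4 and at 3.73, 1.47, 1.34 and 2.27 CPM in eGFP replicates 1 to 4. The groups did not overlap, but Lpcat3 replicate 2, which had the most Onecut1 RNA, had the least Gm16551 RNA of its group. The means were 7.57 ± 2.60 and 2.203 ± 1.10 CPM (SD, n = 4 each), a ratio of 3.44, with a log2 fold change of 1.78 (SE 0.36). Per 100 Onecut1 reads there were 13.6 ± 5.53 Gm16551 reads in the Lpcat3 group and 13.9 ± 4.45 in the eGFP group (SD, n = 4 each), so the means of the ratio differed by much less than its spread. Single libraries ran from 6.13 (Lpcat3 replicate 2) to 20.2 (eGFP replicate 1). The log2 differences were 1.46 over codes 1290 and 1317 together and 1.77 over 1344 and 1345 together. Within code 1290 alone the difference was 1.20 and within code 1345 alone 2.03.

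Gm33562, the antisense gene, was sparse. It had 47, 18, 40 and 39 reads in Lpcat3 replicates 1 to 4 and 10, 2, 6 and 6 reads in eGFP replicates 1 to 4, which are 2.02, 0.795, 1.92 and 1.55 CPM and 0.393, 0.0817, 0.223 and 0.248 CPM. The groups did not overlap, and replicate 2 was lowest in each. The exact 95% Poisson interval of the lowest count, 2 reads, is 0.242 to 7.22 reads and that of the highest eGFP count, 10 reads, is 4.80 to 18.4 reads, which overlaps the 10.7 to 28.4 reads of the 18 in Lpcat3 replicate 2. These intervals cover counting error only. The fitted log2 fold change was 2.70 (SE 0.43). The values by code are differences of mean log2 CPM with a prior count of 2, which shrinks differences at low counts. On that scale the difference over all 8 libraries was 2.39. The log2 differences were 2.87 over codes 1290 and 1317 together and 2.10 over 1344 and 1345 together. Within code 1290 alone the difference was 2.91 and within code 1345 alone 2.31. Per 100 Onecut1 reads there were 2.98 ± 1.56 Gm33562 reads in the Lpcat3 group and 1.54 ± 0.713 in the eGFP group (SD, n = 4 each), with overlap between single libraries (0.943 to 4.68 against 0.552 to 2.13). The library kit was stranded, but whether strand was used in counting is not given, so reads of Gm33562, Gm16551 and the beginning of Onecut1 may not be fully told apart.

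The surroundings of Onecut1 were read in gene order. From the third tested neighbour before it to the third after it, the RefSeq table lists 20 genes, of which 15 are rows of the count table, 9 were tested and 4 had no read in any library. The coding genes on either side did not pass the test. Fam214a, the nearest coding gene after Onecut1, was at 309 ± 59.9 and 260.4 ± 55.5 CPM in the Lpcat3 and eGFP groups (SD, n = 4 each; edgeR adjusted p = 0.676), and without both libraries numbered 3 its log2 fold change turned from 0.25 to -0.01. Rsl24d1, a ribosome assembly gene and the farthest of the 3 tested genes before the locus, was at 17.0 ± 0.528 and 16.5 ± 0.831 CPM (edgeR adjusted p = 0.855), a difference that turned with library totals. Wdr72, the nearest tested coding gene before Onecut1, was under 1 CPM in every library, at 0.561 ± 0.269 and 0.280 ± 0.258 CPM. Its fitted log2 difference was 0.98 (SE 0.68; edgeR adjusted p = 0.671), and 1.86 without both libraries numbered 3. Gm51714, a noncoding gene beyond Fam214a, was at 19.4 ± 1.61 and 20.3 ± 2.83 CPM (edgeR adjusted p = 0.853).

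Noncoding neighbours close to Onecut1 had higher means in the Lpcat3 group without passing the test. Gm38678, annotated as overlapping Onecut1, was at 71.5, 15.4, 127 and 95.1 CPM in Lpcat3 replicates 1 to 4 and at 36.3, 6.82, 5.38 and 20.2 CPM in eGFP replicates 1 to 4. The groups overlapped, because Lpcat3 replicate 2 lay below 2 eGFP libraries, and the fitted log2 difference was 2.17 (SE 0.72), with an edgeR adjusted p of 0.564. Its reads may be shared with Onecut1 by the counting. Gm33459, which lies before the locus and overlaps no gene in the table, was at 3.10, 14.2, 7.77 and 6.13 CPM in Lpcat3 replicates 1 to 4 and at 1.93, 0.572, 0.928 and 3.97 CPM in eGFP replicates 1 to 4. Here Lpcat3 replicate 2 was highest and replicate 1 lay below eGFP replicate 4. The fitted log2 difference was 2.08 (SE 0.60), with an edgeR adjusted p of 0.564. DESeq2 gave adjusted p-values of 0.315 for Gm38678 and 0.228 for Gm33459. The log2 fold change of Gm38678 was 2.84 without eGFP replicate 1 and 1.52 without both libraries numbered 3. For Gm33459 it was 2.76 without eGFP replicate 4 and 1.33 with the code division (1290 and 1317 against 1344 and 1345) as a term.

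**Figure D2:**
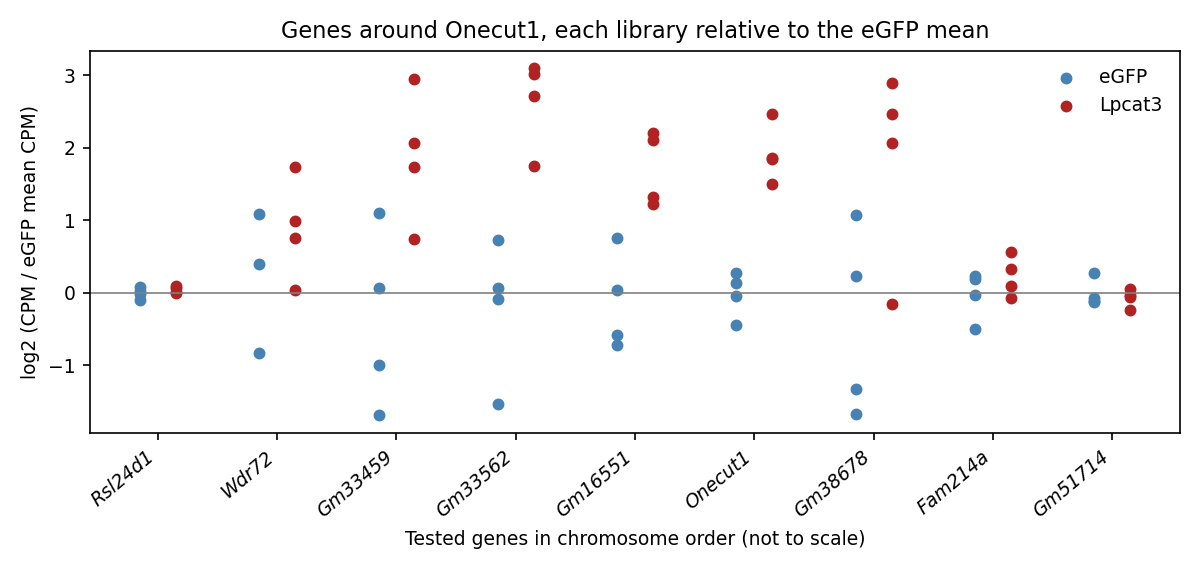
Level of each tested gene around Onecut1 in every library, as log2 of its CPM over the mean CPM of the eGFP group (y axis), with genes in chromosome order and not to scale (x axis). Each point is 1 library. Wdr72 was at 0 in eGFP replicate 4, which has no point. The points of the groups lie apart for Gm33562, Gm16551 and Onecut1, overlap for Gm33459 and Gm38678, and lie together near 0 for Rsl24d1 and Gm51714.

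Likeness to Onecut1 was measured as Pearson's r of log2 CPM over 15086 genes with a mean of at least 1 CPM, after the mean of each group had been subtracted, so that the group difference plays no part. It is a description over 8 libraries sequenced in a single lane, with no p. While 24 genes exceeded an r of 0.9, 40 had an r below -0.9. Socs2, a growth hormone target that feeds back on its receptor, had the second highest r, at 0.97. Its Spearman's rho was 0.95, and its r lay between 0.93 and 0.99 on leaving out any 1 library. Because Socs2 was picked for its high r among 15086 genes, this range is no independent check. Socs2 was at 15.1, 29.6, 22.005 and 18.4 CPM in Lpcat3 replicates 1 to 4 and at 12.4, 11.03, 8.35 and 11.6 CPM in eGFP replicates 1 to 4. Its libraries had the same order as those of Onecut1, with Lpcat3 replicate 2 highest and eGFP replicate 3 lowest. The others of the highest 6 were Phf2os1 (r = 0.98), Lrat (0.96), which encodes the retinol-esterifying enzyme of stellate cells, Dtd2 (0.95), Dhps (0.95) and Gm31600 (0.94). Lrat itself did not separate the groups, at 55.4 ± 7.11 and 54.0 ± 6.96 CPM (SD, n = 4 each).

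Over the 8 values as they are, in which the group difference takes a large part, the 6 genes most like Onecut1 were Swt1 (r = 0.97), Socs2 (0.96), Apbb3 (0.96), Lpcat3 (0.96), Cntfr (0.96) and Hand2os1 (0.95). Lpcat3 is the gene carried by the virus. Within groups the paralogue and the genes of the locus ran from r = -0.33 to 0.74 with Onecut1. Gm33459 had 0.74, Gm38678 -0.07 and Gm33562 -0.33, and these 3 were compared after their values were seen. Onecut2 had r = 0.33 with Onecut1 and rank 3745 among 15086 genes, and Gm16551 had r = 0.30 and rank 4098. The values of Onecut2 and Gm16551 moved widely with single libraries, from 0.13 to 0.76 and from 0.04 to 0.90 on leaving out any 1, and at this n such values are no finding.

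**Figure D3:**
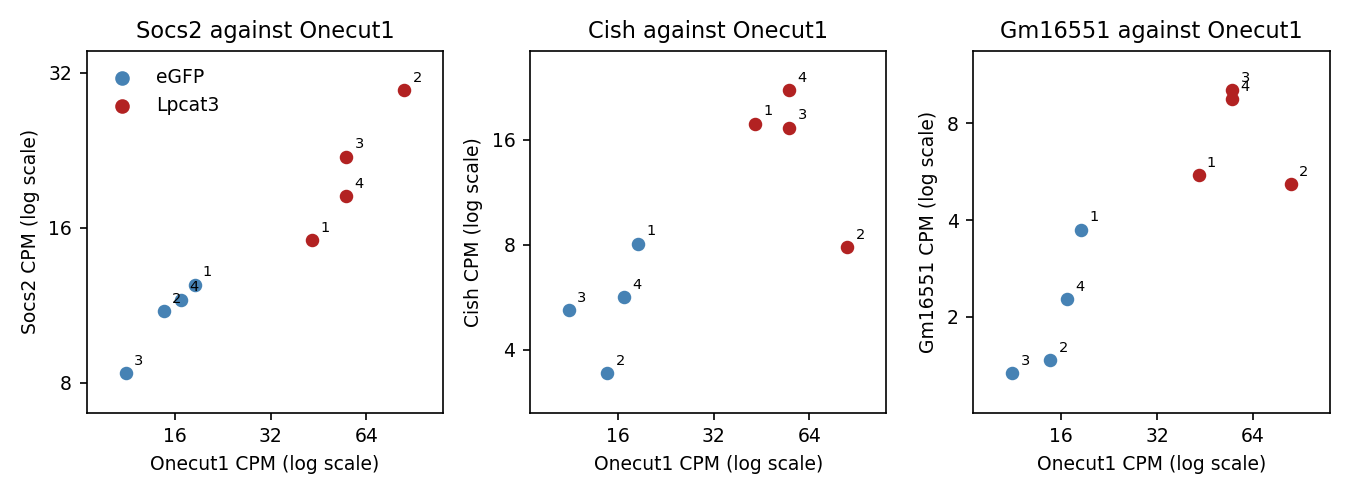
CPM of Socs2, Cish and Gm16551 (y axes, log scale) against CPM of Onecut1 (x axes, log scale) in the 8 libraries, with groups by colour. Socs2 follows Onecut1 through both groups, while for Cish and Gm16551 Lpcat3 replicate 2 lies low for its Onecut1 level of 84.3 CPM.

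Growth hormone signalling had members that differed in opposite directions. Of 10 genes, 5 were higher and 5 lower in the Lpcat3 group, with a median log2 fold change of 0.04 against -0.01 for all genes. edgeR called 0 of them where DESeq2 called Socs2 and Cish, both higher. Of all 17438 genes DESeq2 called 28 higher and 23 lower. At an unadjusted p under 0.05 in edgeR 3 were higher and 1 lower, against 3.3% and 5.18% of all genes. Socs2 had means of 21.3 ± 6.20 and 10.9 ± 1.76 CPM (SD, n = 4 each; log2 fold change 0.97, SE 0.21; edgeR adjusted p = 0.564, DESeq2 adjusted p = 0.00687), with no overlap of the groups. Cish, an immediate STAT5 target, was at 17.8, 7.86, 17.3 and 22.2 CPM in Lpcat3 replicates 1 to 4 and at 8.05, 3.43, 5.20 and 5.66 CPM in eGFP replicates 1 to 4. Lpcat3 replicate 2 lay just below eGFP replicate 1, and the fitted log2 difference was 1.54 (SE 0.33; edgeR adjusted p = 0.564, DESeq2 adjusted p = 0.00232). Bcl6, a repressor that competes at STAT5 sites, was lower, at 45.4 ± 12.3 and 72.7 ± 10.9 CPM (edgeR adjusted p = 0.564, DESeq2 adjusted p = 0.122). The receptor gene Ghr, at 570.5 ± 120.1 and 497 ± 75.8 CPM, and the kinase gene Jak2, at 40.8 ± 1.90 and 44.3 ± 6.88 CPM, overlapped between groups, as did Stat5b at 69.1 ± 4.01 and 75.1 ± 7.90 CPM. Igf1, the main secreted product of the pathway, was at 713 ± 153 and 528 ± 114 CPM (edgeR adjusted p = 0.589).

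Genes reported as HNF6 targets in liver had mostly higher means in the Lpcat3 group, 12 of 14, and their median log2 difference was 0.14, where 48.5% of all genes were higher. With library totals 8 of 14 were higher, with a median of 0.04, and with the code division in the fit the median was 0.05. No member was called by edgeR or DESeq2 (0 in each case; 5 higher and 0 lower at an unadjusted p under 0.05 in edgeR, which holds for 3.3% of all genes in that direction). The leading members were genes of glucose, amino acid and bile acid metabolism. G6pc, which releases glucose in the last step of gluconeogenesis, was at 383 ± 151 and 194 ± 66.5 CPM, Tat, a tyrosine aminotransferase, at 1090 ± 445 and 577 ± 234 CPM, and Cyp7a1, the rate-limiting enzyme of bile acid synthesis, at 525 ± 238 and 257 ± 114 CPM (SD, n = 4 each; edgeR adjusted p = 0.564, 0.570 and 0.582). Lpcat3 replicate 3 had the highest and eGFP replicate 3 the lowest value of each of these genes, and the groups overlapped in all 3. Without both libraries numbered 3, the log2 fold change went from 0.98 to 0.57 for G6pc, from 0.92 to 0.39 for Tat and from 1.03 to 0.43 for Cyp7a1. In that setting 11 of 14 genes of the list were higher, with a median of 0.10. Next by p were Foxa2, Igfbp1 and Pck1, with log2 differences of 0.42, 0.50 and 0.63 (edgeR adjusted p = 0.587, 0.587 and 0.636). The highest of the rest of the list was Slc2a2, at 0.14 on the log2 scale.

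Hepatocyte transcription factors, the network to which HNF6 belongs, had higher means for 17 of 18 genes, and their median log2 difference was 0.18. The count was 11 of 18 with library totals (median 0.07), 14 of 18 with the code division in the fit (median 0.05) and 13 of 18 without both libraries numbered 3 (median 0.04). None was called by edgeR or DESeq2 (0 in each case). At an unadjusted p under 0.05 in edgeR 6 were higher and 1 lower, against 3.3% and 5.18% of all genes. Foxa1, a pioneer factor, was at 63.2 ± 3.64 and 51.2 ± 4.68 CPM, Foxa3 at 33.7 ± 4.29 and 26.8 ± 1.27 CPM and Cebpb at 63.6 ± 9.21 and 48.6 ± 3.29 CPM (SD, n = 4 each; edgeR adjusted p = 0.564 for each), and the groups did not overlap for these genes. Members without overlap in this direction were 4 of 18, where 1.93% of all genes were such. The log2 differences of the whole list, from -0.85 (Nr0b2) to 0.42 (Foxa2), were all smaller than that of Onecut1.

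Genes of biliary differentiation and Notch signalling, the developmental setting of HNF6, had lower means for 10 of 12 genes, and their median log2 difference was -0.19. It was -0.05 without both libraries numbered 3 and -0.02 with the code division in the fit, each with 6 of 12 lower. Members without overlap, all lower, were 3 of 12, where 2.24% of all genes were such. Called by edgeR were 0 (0 higher and 2 lower at an unadjusted p under 0.05), while DESeq2 called the Notch target Hes1 and the receptor gene Notch1, both lower. Of all genes 3.3% were higher and 5.18% lower at that unadjusted p in edgeR. DESeq2 called 28 higher and 23 lower of all 17438 genes. Hes1 was at 7.88, 8.61, 7.24 and 9.15 CPM in Lpcat3 replicates 1 to 4 and at 11.4, 12.9, 13.3 and 16.7 CPM in eGFP replicates 1 to 4, without overlap (edgeR adjusted p = 0.417, DESeq2 adjusted p = 0.00256). Notch1 was at 48.6 ± 3.81 and 62.6 ± 4.80 CPM (edgeR adjusted p = 0.564, DESeq2 adjusted p = 0.0416). Inhbb, an activin subunit gene, was at 3.76 ± 1.08 and 5.50 ± 1.90 CPM (edgeR adjusted p = 0.622).

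Bile duct cells also express Onecut1, so their markers are given beside it. Of 10 tested cholangiocyte markers 9 had higher means in the Lpcat3 group, where 48.5% of all genes were higher, and their median log2 difference was 0.58. edgeR and DESeq2 called 0 of them. At an unadjusted p under 0.05 in edgeR 2 were higher and 0 lower, against 3.3% and 5.18% of all genes. The keratin gene Krt7 was at 1.47 ± 0.682 and 0.800 ± 0.299 CPM, Epcam at 3.94 ± 1.95 and 2.10 ± 0.642 CPM and the chloride channel gene Cftr at 1.71 ± 1.13 and 0.877 ± 0.242 CPM (SD, n = 4 each; edgeR adjusted p = 0.587, 0.582 and 0.597). The summed level of all 11 markers was 100.4, 153, 47.4 and 122 CPM in Lpcat3 replicates 1 to 4 and 82.4, 103, 90.5 and 45.4 CPM in eGFP replicates 1 to 4. Lpcat3 replicate 2 had the highest marker sum and also the most Onecut1, at 84.3 CPM. Lpcat3 replicate 3, with a marker sum close to the lowest of all, had 55.3 CPM of Onecut1, more than any eGFP library. The relation of Onecut1 to these markers was not tested. Most markers of other sources of Onecut genes were scarce. Of 9 pancreatic acinar markers 1 was tested, Cela1, and Prss2, Pnlip and Ptf1a had no read. Of 7 pancreatic endocrine markers 6 had no read and none was tested. Of 8 markers of neurons, cells in which Onecut2 is known, 2 were tested (Syt1 and Rbfox3). The summed level of all 8 was 9.60 to 19.1 CPM in the Lpcat3 group and 8.57 to 18.4 CPM in the eGFP group. Syt1 alone was at 9.04 to 18.5 CPM and 7.78 to 17.6 CPM in the same groups.

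Markers of other cell types were read in the same way. Macrophage markers had lower means for 7 of 8 genes (median log2 difference -0.53). Their sums were 203 to 267 CPM in the Lpcat3 group and 289 to 403 CPM in the eGFP group, without overlap. Endothelial markers had lower means for 7 of 7 (median -0.18). Their sums, at 317 to 401.02 and 400.29 to 435 CPM, overlapped narrowly. Stellate cell markers overlapped more widely, with sums of 292 to 491 and 400.0 to 473 CPM. edgeR called 0 of these genes, with 4 macrophage and 3 endothelial markers lower at an unadjusted p under 0.05, and DESeq2 called 0. Of all genes 5.18% were lower at that unadjusted p, and 8980 of 17438 had a log2 fold change below 0. The part of cell composition in the values of the Onecut genes was not tested.

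HNF6 has been reported to recruit HDAC3 with REV-ERB alpha to genes of lipid metabolism in liver. Among 8 genes of that corepressor set 6 were higher by at most 0.12 on the log2 scale (1 of 8 with library totals), and Nr1d1, which encodes REV-ERB alpha and is strongly rhythmic, was lower, at 63.5 ± 17.1 and 91.2 ± 11.5 CPM (SD, n = 4 each; edgeR adjusted p = 0.564). Genes of lipid uptake and droplets had lower means for 8 of 10 members, with a median log2 difference of -0.20. Without both libraries numbered 3 it was 4 of 10 and 0.07, and with the code division in the fit 5 of 10 and -0.02. Lpl, the lipoprotein lipase gene, was at 68.1 ± 10.98 and 111 ± 32.2 CPM (edgeR adjusted p = 0.564), Mogat1 at 4.52 ± 1.55 and 6.57 ± 1.56 CPM (0.599) and the fatty acid transporter gene Cd36 at 323 ± 60.9 and 384 ± 46.0 CPM (0.646). Clock genes had higher means for 13 of 18 members, with a median log2 difference of 0.15, which was 0.29 without eGFP replicate 4. Without both libraries numbered 3, or with the code division in the fit, 9 of 18 were higher. Among them Per1 was at 64.9 ± 21.3 and 35.7 ± 10.1 CPM and Per2 at 65.6 ± 13.7 and 45.4 ± 12.1 CPM (edgeR adjusted p = 0.564 and 0.579). In these 3 lists edgeR and DESeq2 called 0 genes. At an unadjusted p under 0.05 edgeR counted 1 lower in each, and 2 higher among the clock genes, against 5.18% lower and 3.3% higher of all genes. Of the rest of the cut homeobox family, Satb1 was at 1.87 ± 0.205 and 2.17 ± 0.382 CPM (edgeR adjusted p = 0.708) and Cux2 at 1.08 ± 0.137 and 0.861 ± 0.259 CPM (0.698).

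**Figure D4:**
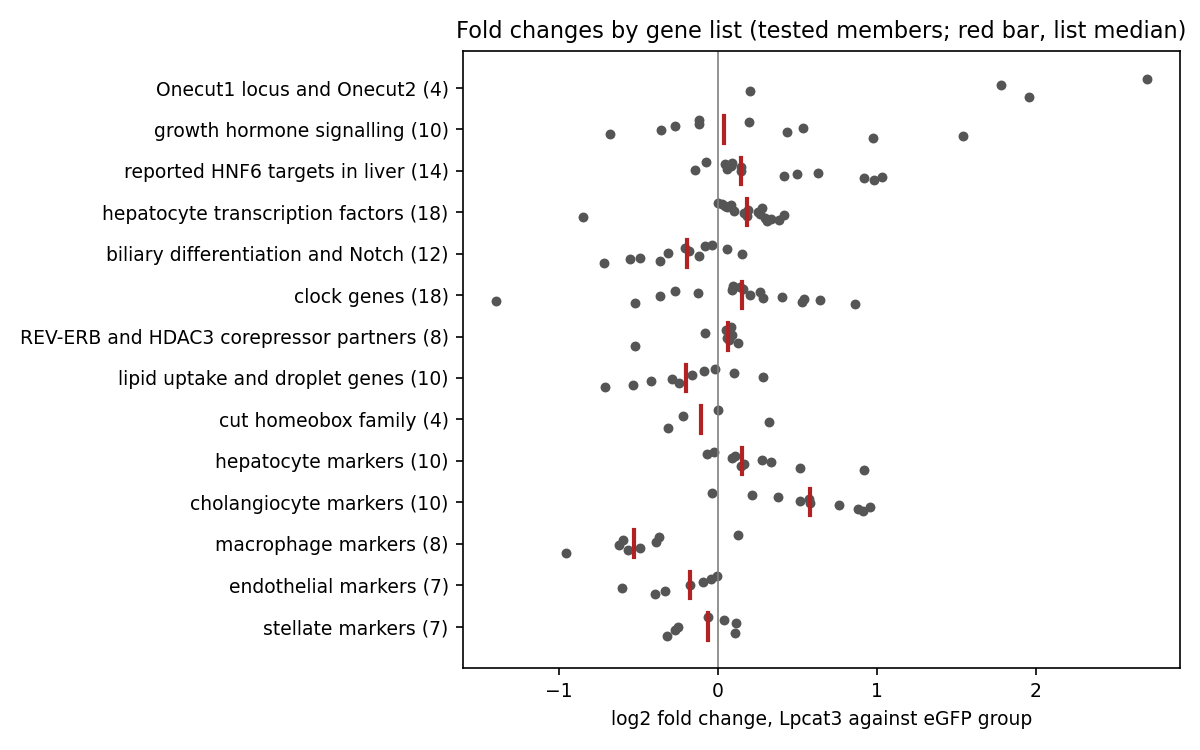
Log2 fold change of the Lpcat3 against the eGFP group (x axis) for each tested gene, by list with the number of genes (y axis). Points are genes and red bars list medians, which run from -0.53 for macrophage markers to 0.58 for cholangiocyte markers. Of the 4 genes in the top line, Onecut2 lies at 0.20 and Onecut1, Gm16551 and Gm33562 at 1.78 to 2.70.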

How the data were processed

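The authors deposited raw counts, whole numbers of reads per NCBI gene and library. Per the submitters' processing notes, bcl2fastq 2.20, DESeq2 and GRCm39 were used. How reads were aligned, counted and assigned to strands is not stated in these notes or the labels. Per the labels' protocols, ribosomal RNA was removed from total RNA and stranded libraries were sequenced from one end. Columns were joined to samples by the codes in the titles. Symbols came from a RefSeq table of GRCm38 (39397 of 40838 rows, 99.5% of counts), which served for names and neighbours only.

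Genes were filtered with filterByExpr (minimum count 10) and fitted with edgeR 4.0.16 (R 4.3.3; TMM scaling, robust quasi-likelihood, a 2-group design). Two-sided p-values were Benjamini-Hochberg adjusted over 17438 genes. CPM use TMM-scaled totals; log2 CPM a prior count of 2. Alternatives were other scalings and filters, DESeq2 1.42.0, a code or replicate term, and left-out libraries. The fit was tested on simulated data.

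The genes, lists and rules were chosen with earlier results of these data known. Named were Lpcat3, the 3 nearest tested genes on each side, the 3 members of each list with the smallest p, and the 6 genes most like Onecut1 by each measure; Ghr, Jak2, Stat5b, Igf1, Egfros, Igfbp1, Pck1, Slc2a2, Nr0b2 and Foxa2 were named after their values were seen. A member of the cut homeobox list and one of the HNF6 target list are not reported here.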

Additional observations from a re-analysis of the deposited data

Results flagged for a closer look

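In groups of 4 libraries, 102 groups of values (51 genes) were screened for a single library far from the rest, and 8 were found where chance gives about 1 in 20. Onecut2 was at 394 CPM in Lpcat3 replicate 2 against 378 to 381 CPM in the other Lpcat3 libraries, the library that was also highest in Onecut1. Among genes named beside it, Cyp7a1 was at 86.6 CPM in eGFP replicate 3 (297 to 332 CPM in the others) and Gm51714 at 24.5 CPM in the same library (18.6 to 19.3 CPM). Inhbb was at 2.15 CPM in Lpcat3 replicate 4 (4.15 to 4.48 CPM). Asgr1, a hepatocyte marker, was at 144 CPM in Lpcat3 replicate 3 (122 to 124 CPM), and the collagen gene Col3a1 was at 24.1 CPM there (81.4 to 88.9 CPM). Col3a1 was at 69.0 CPM in eGFP replicate 4 (89.9 to 91.0 CPM), and Syt1 at 17.6 CPM in the same library (7.78 to 9.31 CPM).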

How the results depend on the processing

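Onecut1 kept its direction in all alternatives run, with log2 fold changes of 1.74 to 2.09, as did Gm16551 (1.43 to 2.16) and Gm33562 (2.43 to 3.05, with no value under the filter of 1 CPM in 4 libraries). These genes were chosen on this difference and their groups did not overlap. Leaving out libraries could thus hardly turn the direction, and only the size of the values is informative. Onecut2 ran from 0.083 with library totals to 0.24. The count of genes that edgeR called higher was 3 with library totals, 2 without robust estimation, 0 without the filter, with the code division in the fit and without both libraries numbered 3 (an alternative chosen after seeing the data), and 0 to 7 on leaving out 1 library (7 without Lpcat3 replicate 1). DESeq2 called 28 higher and 23 lower. With the replicate number as a block, edgeR called 0 higher and the log2 fold change of Onecut1 was 1.94. The numbers are not a pairing in the labels, and correlations of deviations between same-numbered libraries were 0.29, -0.07, -0.40 and -0.12, so libraries were not all most like their own number. Causes were not tested. With 4 libraries per group, Gm33562 is limited by its 2 to 47 reads per library.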

Other observations

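Of the 4 noncoding genes tested closest to Onecut1, 3 varied with Cish across the libraries, and Gm33459 varied with Onecut1 and Socs2. This was noticed in the data and the genes were chosen after their values were seen, so the correlations over 8 libraries, with group means subtracted, are a description. Gm33562, Gm38678 and Gm16551 had r = 0.91, 0.87 and 0.73 with Cish, and 0.83 to 0.89 was the r of Gm38678 with the other two. Gm33459 had r = 0.74 with Onecut1, 0.71 with Socs2 and -0.04 with Cish. Onecut1 had r = -0.35 with Cish but 0.97 with Socs2, while Cish and Socs2 had r = -0.46 with each other. In Lpcat3 replicate 2 Onecut1 (84.3 CPM), Socs2 (29.6 CPM) and Gm33459 (14.2 CPM) were each the highest of all libraries, whereas Cish (7.86 CPM), Gm38678 (15.4 CPM), Gm16551 (5.17 CPM) and Gm33562 (0.795 CPM) were each the lowest of the Lpcat3 group. Counts behind Gm33562 are few, and reads of overlapping genes may be shared. Apart from the r of Onecut1 with Socs2, these correlations were not recomputed with single libraries left out, so they may rest on single libraries.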
